A study of Sus scrofa with 8 samples.

Results

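Hepatic expression of SREBF1, SREBF2, SCAP, INSIG1, INSIG2, STARD4 and MYLIP, the genes that set the activity of the sterol regulatory element-binding proteins (SREBP) and act on sterol transport and the uptake of low density lipoprotein (LDL), was described in pigs before and after a steatotic diet. These 7 genes were taken by their symbols from a table of 18103 genes, and each of them passed the filter on low values (0.3 FPKM or more in 4 or more of the 8 libraries) that left 13175 genes for testing. FPKM, the fragments mapped to a gene per transcript length and library size, is a level per length, so it can be compared between genes. RNAseq had been carried out in 8 libraries of liver RNA from male Landrace x Large White pigs, each library a pool of 2 animals. The 4 pools of the initial state (labelled healthy controls) came from animals of 4 months on a standard diet, biopsied by laparotomy, and the 4 pools of steatosis came from the same animals at 6 months, after 2 months on a diet rich in cholesterol, cholate, saturated fat and fructose, restricted in methionine and choline, with the liver taken at the end of the experiment. All were fasted overnight. Diet, age and way of sampling changed together, so their effects cannot be told apart. In this bulk tissue, fewer cells of a type and less RNA per cell cannot be told apart either.

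SREBPs are transcription factors made as membrane proteins of the endoplasmic reticulum. SCAP, which senses cholesterol, escorts them to the Golgi apparatus, where proteases release the active part, and the INSIG proteins hold SCAP back when sterols are plentiful. SREBF1 encodes SREBP1, mainly known for driving fatty acid synthesis and itself a target of the oxysterol receptor LXR in the liver, while SREBF2 encodes SREBP2, mainly known for driving cholesterol synthesis.

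Depth, estimated from the steps between low FPKM values, was similar among libraries, between 90.5% and 100% of the deepest. The hepatocyte markers (ALB, APOA1, TTR and others, 8 of 8 detected) summed to 56683 to 89286 FPKM in the initial state and to 50846 to 62352 in steatosis. The top of the initial range was pool 4, with ALB at 71003 FPKM, and the other initial pools summed to 56683 to 62164. Of the 8 markers, 0 changed by a log2 fold change over 1 in size at an adjusted p below 0.01. At an adjusted p under 0.05, TF alone was higher (0.61, limma adjusted p = 0.012) and 0 were lower. Under the median ratio scaling described below, 0 were higher and 1 was lower at that limit (all genes 11.2% and 10.1%). The macrophage markers summed to 560 to 778 FPKM in the initial state and to 1475 to 2117 in steatosis. GPNMB alone went from a mean of 24.1 to 776 FPKM. Of the 10 markers, 5 were higher by a log2 fold change over 1 at an adjusted p below 0.01 (all genes 6.01%), and 7 at an adjusted p under 0.05 (26.7%). C1QA (log2 fold change 0.07, limma adjusted p = 0.73), CD163 (0.32, 0.089) and CLEC4F (-0.30, 0.51) did not pass. Among the 5, TREM2 was at 0 in 2 initial pools, and no marker was at 0 in a whole group. Their part in the results was not tested. Initial pool 1 stood apart because 7 skeletal muscle markers summed to 3028 FPKM there and to at most 23.2 in the other pools, and 7 stomach markers summed to 1518 and at most 28.7. The 5 adipose markers summed to 85.1 FPKM in that pool, to 16.5 to 17.5 in the other initial pools and to 54.1 to 63.9 in the steatosis pools. FABP4 was at 44.7 FPKM in initial pool 1, at 2.15 to 3.74 in the other initial pools and at 41.9 to 53.6 in the steatosis pools. ADIPOQ was at 27.9 in initial pool 1 against at most 0.60 FPKM in any other pool. PLIN1 (3.01) and CIDEC (9.05) of initial pool 1 lay within the range of the other initial pools. The part of these tissues in the results was not tested. Steatosis pool 1 stood apart in sterol genes, since the 20 genes of cholesterol synthesis summed to 910 FPKM there and to 386 to 434 in the other 3 pools of steatosis. Across the 13175 genes the median log2 fold change (steatosis over initial state) was 0.25 in the values as deposited and -0.02 once libraries were scaled by their median ratio to the mean library. Changes of the 7 genes are therefore given under both scalings.

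SREBF1 had the largest rise of the 7 genes, while INSIG1, SREBF2 and STARD4 fell, MYLIP rose moderately, and SCAP and INSIG2 did not pass the test. Genes were called differentially expressed when the log2 fold change exceeded 1 in size with an adjusted p below 0.01, and "rose" and "fell" are used for an adjusted p under 0.05 (limma on log2(FPKM + 0.1), Benjamini-Hochberg adjustment over all genes tested). Log2 fold changes are differences between the group means of log2(FPKM + 0.1), so they can differ from the ratio of the mean FPKM values. By the stricter rule 1 of the 7 genes was higher (SREBF1), against 6.01% of all genes tested, and 0 were lower, against 0.334%. By the second rule 2 rose, against 26.7% of all genes, and 3 fell, against 2.28%. Under median ratio scaling the stricter rule called 0 of the 7 higher (all genes 3.03%) and 0 lower (0.654%), and the second rule called the same 2 higher (11.2%) and the same 3 lower (10.1%). The 4 genes whose groups did not overlap were SREBF1, INSIG2 and MYLIP, higher (29.6% of all genes), and STARD4, lower (2.53% of all genes).

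**Figure D1:**
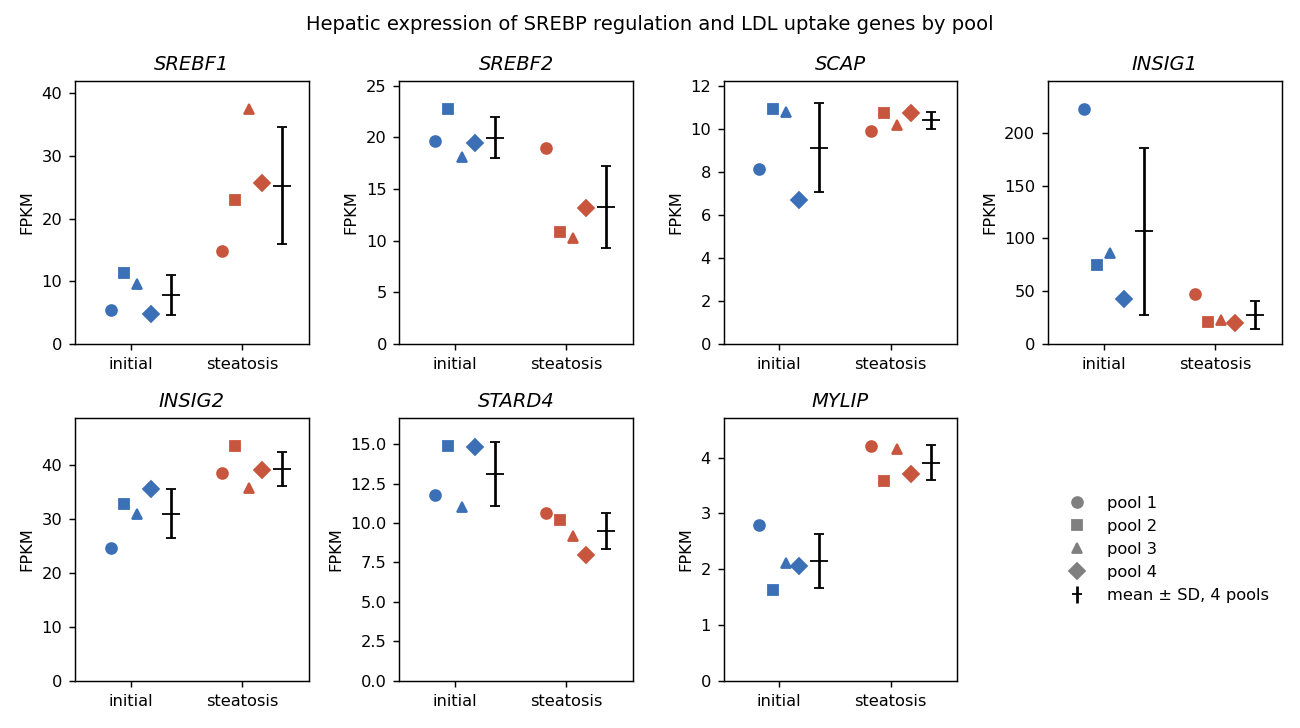
FPKM (linear axes from 0) of each gene in the 4 pools of the initial state (blue) and of steatosis (red), with a symbol for each pool number and the mean ± SD in black. The SREBF1 values of steatosis lie above all initial values, INSIG1 is highest in initial pool 1 at 222 FPKM, and the SREBF2 value of steatosis pool 1 lies within the initial range.

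Among the transcription factors, SREBF1 (gene 397308, chromosome 12, 60733967 to 60750951, Sscrofa11.1) was measured at 5.43, 11.4, 9.57 and 4.80 FPKM in initial pools 1 to 4 and at 14.9, 23.0, 37.4 and 25.6 FPKM in steatosis pools 1 to 4. Every steatosis pool was above every initial pool, with the highest value in pool 3. The mean went from 7.80 ± 3.19 to 25.2 ± 9.31 FPKM (SD, n = 4 pools). The log2 fold change was 1.70 (SE 0.33, limma adjusted p = 0.0045), and 1.42 under median ratio scaling (adjusted p = 0.012), where the gene still rose but was not differentially expressed. With the pool number as a block it was, under that scaling too (adjusted p = 0.0038). The increase was seen in 4 of 4 pairs of equally numbered pools, from 1.01 to 2.39 on the log2 scale. The change stayed past an adjusted p of 0.05 in all 8 fits that left out 1 library, but the stricter rule was met in 3 of them. It was lost without initial pool 1 (1.56, adjusted p = 0.011) or 4 (1.5, 0.012), and without steatosis pool 2 (1.72, 0.014), 3 (1.48, 0.012) or 4 (1.67, 0.015). The table gives 1 value per gene, so the SREBP1a and SREBP1c transcripts were not separated, and the value includes 1 transcript assembled by the authors.

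SREBF2 (gene 396675, chromosome 5, 6719484 to 6784724) was measured at 19.65, 22.7, 18.1 and 19.45 FPKM in the initial pools and at 18.96, 10.9, 10.3 and 13.1 FPKM in the steatosis pools. Pools 2 to 4 of steatosis were below all initial pools, and pool 1 of steatosis lay among them. The mean fell from 19.99 ± 1.95 to 13.3 ± 3.97 FPKM. The log2 fold change was -0.62 (SE 0.18, limma adjusted p = 0.029), and -0.90 under median ratio scaling (adjusted p = 0.0085). All 4 pairs of pools were lower, pool 1 with a log2 difference of only -0.05. Without pool 1 of both groups, an alternative added after the data were seen, the change was -0.81 (adjusted p = 0.0065). The adjusted p exceeded 0.05 without initial pool 2 (0.068) or 4 (0.0515) and without steatosis pool 2 (0.081), 3 (0.077) or 4 (0.064).

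The balance between both SREBP genes was compared within each library, where the scaling cancels. In the initial state the log2 ratio of SREBF1 to SREBF2 was -1.84, -0.99, -0.91 and -2.0 in pools 1 to 4, so SREBF2 was the more abundant transcript in all of them. In steatosis the log2 ratio was -0.35, 1.08, 1.86 and 0.96, and SREBF1 was the more abundant in 3 of 4 pools. The mean difference was 2.32, with no overlap between groups (two-sided exact permutation test, p = 0.0286, the minimum for 4 against 4 pools). Leaving out any 1 of the 4 initial pools gave an exact p of 0.0571 (differences of 2.13 to 2.49), and leaving out a steatosis pool gave 0.0286. With the pool numbers as pairs the exact p was 0.125, which is the smallest that 4 pairs allow.

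**Figure D2:**
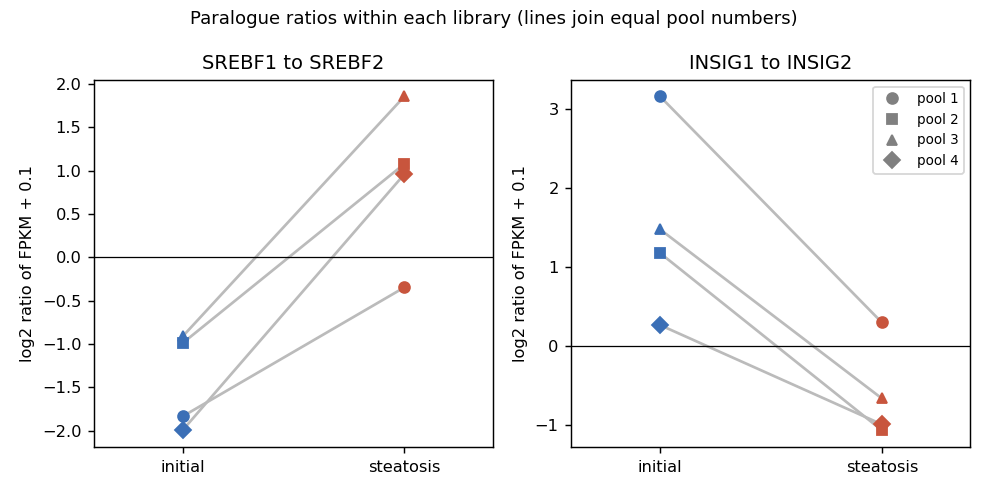
Log2 ratio of SREBF1 to SREBF2 and of INSIG1 to INSIG2 in each library (vertical axes, log2 of FPKM + 0.1), with grey lines joining pools of equal number in the initial state (blue) and steatosis (red). All lines of SREBF1 to SREBF2 go up and all lines of INSIG1 to INSIG2 go down, and pool 1 of steatosis lies nearest to the initial pools in both panels.

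SCAP, the escort protein (gene 494015, chromosome 13, 30253262 to 30320625), was measured at 8.12, 10.9, 10.8 and 6.70 FPKM in the initial pools and at 9.90, 10.7, 10.2 and 10.7 FPKM in the steatosis pools. The groups overlapped, and the steatosis pools lay within the initial range. On the log2 scale the difference was 0.21 (SE 0.16, 95% interval -0.14 to 0.56, limma adjusted p = 0.33), and it turned to -0.07 under median ratio scaling (interval -0.32 to 0.19, adjusted p = 0.71). The interval of the values as deposited leaves out a change by the factor of 2 that differential expression required, in either direction.

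Of the SCAP retention proteins, INSIG1 (gene 403162, chromosome 18, 2885494 to 2898758), a target of SREBPs in its own right, was the most abundant of the 7 genes in the initial state. It was measured at 222, 74.6, 86.7 and 42.8 FPKM in the initial pools and at 47.7, 20.8, 22.7 and 19.7 FPKM in the steatosis pools. Initial pool 1 was far above the others, and steatosis pool 1 lay above initial pool 4, so the groups overlapped. The mean went from 107 ± 79.2 to 27.7 ± 13.4 FPKM. The log2 fold change was -1.77 (SE 0.46, limma adjusted p = 0.018), and -2.06 under median ratio scaling (adjusted p = 0.012). INSIG1 was lower in 4 of 4 pairs of pools, with log2 differences of -2.22 to -1.12. With the pool number as a block it was differentially expressed (adjusted p = 6.4e-04), as it was without pool 1 of both groups (-1.63, adjusted p = 0.0031). Leaving out initial pool 4 also made it differentially expressed (-2.12, adjusted p = 0.0083), whereas without initial pool 1 the change was -1.33 (adjusted p = 0.018) and without steatosis pool 4 the adjusted p was 0.0504.

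INSIG2 (gene 100170127, chromosome 15, 23676684 to 23699591), the second retention protein, was measured at 24.7, 32.9, 31.0 and 35.5 FPKM in the initial pools and at 38.7, 43.6, 35.9 and 39.2 FPKM in the steatosis pools. The groups did not overlap, but initial pool 4 and steatosis pool 3 were close. The log2 fold change was 0.35 (SE 0.12, limma adjusted p = 0.055), and 0.07 under median ratio scaling (95% interval -0.26 to 0.39, adjusted p = 0.77). Without initial pool 4 the adjusted p was 0.032. RefSeq lists an INSIG2 pseudogene on chromosome 7 that has no row of its own in the table, so reads shared with it could not be separated.

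The INSIG1 to INSIG2 log2 ratio was 3.16, 1.18, 1.48 and 0.27 in the initial pools and 0.30, -1.06, -0.66 and -0.99 in the steatosis pools. INSIG1 was the more abundant in all initial pools, and INSIG2 in 3 of 4 steatosis pools. The ratio of steatosis pool 1 was just above that of initial pool 4. The mean difference of -2.12 did not pass the exact permutation test (two-sided, p = 0.0571), nor did it with pools as pairs (exact p = 0.125, the smallest possible). Without initial pool 4 it passed (-2.54, exact permutation p = 0.0286).

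STARD4, a soluble carrier that moves cholesterol between membranes and a known SREBP2 target (gene 100233203, chromosome 2, 116235821 to 116257143), was measured at 11.8, 14.9, 10.99 and 14.8 FPKM in the initial pools and at 10.6, 10.2, 9.18 and 8.00 FPKM in the steatosis pools. All steatosis pools were below all initial pools, with a narrow gap between initial pool 3 and steatosis pool 1. The mean fell from 13.1 ± 2.02 to 9.49 ± 1.16 FPKM. The log2 fold change was -0.46 (SE 0.14, limma adjusted p = 0.033), and -0.74 under median ratio scaling (adjusted p = 0.011). The adjusted p exceeded 0.05 without initial pool 2 (0.073) or 4 (0.069) and without steatosis pool 2 (0.056), 3 (0.077) or 4 (0.097). The gene overlaps a long noncoding RNA gene in the annotation, and the strandedness of the libraries was not given in the sources used here.

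MYLIP, also called IDOL, encodes a ubiquitin ligase that sends the LDL receptor to degradation and is induced by LXR (gene 100155795, chromosome 7, 12117240 to 12137934). It was measured at 2.79, 1.63, 2.12 and 2.05 FPKM in the initial pools and at 4.21, 3.58, 4.16 and 3.70 FPKM in the steatosis pools. Every steatosis pool was above every initial pool. The mean rose from 2.15 ± 0.48 to 3.91 ± 0.32 FPKM. The log2 fold change was 0.86 (SE 0.16, limma adjusted p = 0.0042), and 0.58 under median ratio scaling (adjusted p = 0.042). The rise was seen in 4 of 4 pairs of pools and passed an adjusted p of 0.05 in all 8 fits without 1 library, from 0.74 to 0.99. MYLIP was the least abundant of the 7 genes, with an estimated 102 to 263 fragments per library.

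**Figure D3:**
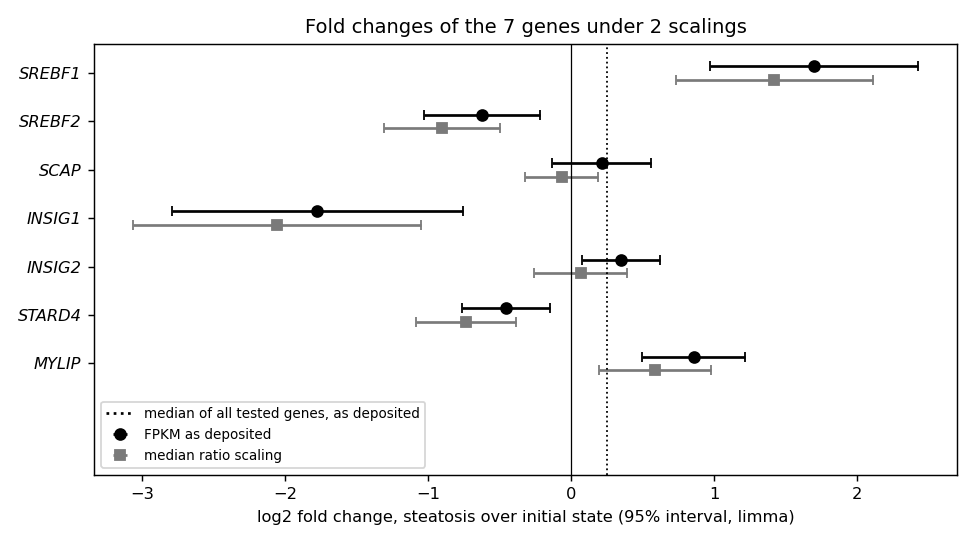
Log2 fold change of each gene (horizontal axis, steatosis over initial state) with its 95% interval from limma, for FPKM as deposited (black circles) and after median ratio scaling (grey squares). The dotted line marks the median of all genes tested, 0.25, and the values of SCAP (0.21) and INSIG2 (0.35) lie near it.

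The order of the levels changed between the groups. In the initial state it ran INSIG1, INSIG2, SREBF2, STARD4, SCAP, SREBF1 and MYLIP, and only SCAP and SREBF1 overlapped among neighbours. In steatosis it ran INSIG2, INSIG1, SREBF1, SREBF2, SCAP, STARD4 and MYLIP, and all neighbours overlapped except STARD4 and MYLIP. Among pools, INSIG1 varied most in both groups, with a coefficient of variation of 74.4% in the initial state and 48.2% in steatosis, and SCAP varied least in steatosis, at 3.98%.

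The genes whose profiles were most like those of the 7 genes were named by Pearson's r over the 8 libraries of both groups. Only tested genes with an assigned symbol were ranked. The result is a description, since the groups and the pools are shared by all of them. For SREBF2 they were 3 genes of cholesterol synthesis, MVD (r = 0.988), SQLE (0.984) and FDPS (0.978). For SREBF1 they were SLC12A7 (0.982), MCUR1 (0.982) and CYP4V2 (0.981). The profile of INSIG1 was most like those of OAT (0.976), CDKN1C (0.973) and SDC4 (0.971). STARD4 was closest to TMEM97 (0.978), MRPL34 (0.974) and NHP2 (0.961), and MYLIP to CYP3A22 (0.993), ARHGEF4 (0.988) and CLEC4E (0.981). For SCAP they were PPFIA1 (0.992), CCAR2 (0.982) and AMMECR1L (0.981), and for INSIG2 they were SELENOP (0.986), TMEM231 (0.977) and HSP70.2 (0.9749).

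The other genes of the pathway were described by lists that leave out the 7 genes. The SREBP2 targets of cholesterol synthesis all had log2 fold changes below 0, with 12 of 20 differentially expressed and 19 of 20 fallen (all genes 0.334% and 2.28%). The first count was 16 without steatosis pool 1 and 7, 5, 8 and 5 without initial pools 1 to 4, and 4, 6 and 5 without steatosis pools 2 to 4, while 15 to 20 fell in these fits. Their median log2 fold change was -1.5, and -1.78 under median ratio scaling. SQLE, which makes squalene epoxide, fell from 34.6 ± 6.89 to 5.12 ± 8.24 FPKM (log2 fold change -4.15, limma adjusted p = 0.0088). This fold change is a difference of mean log2 values and is larger in size than the change between the printed means. IDI1 (-3.09), HMGCS1 (-2.44) and DHCR7 (-1.4) also fell, DHCR7 with an adjusted p of 0.056 without initial pool 1. Steatosis pool 1 was the highest steatosis pool for each of these 4 genes, as for INSIG1, SREBF2 and STARD4, with 17.4 FPKM of SQLE against 0.38 to 2.01 in the other pools.

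The SREBP1 targets of fatty acid and triglyceride synthesis did not move together. Of 14 genes, 4 were differentially expressed and higher, 6 rose and 2 fell (all genes 6.01%, 26.7% and 2.28%), and the median was 0.51. Under median ratio scaling the median was 0.27, and 1 was differentially expressed and higher, 5 rose and 3 fell (all genes 3.03%, 11.2% and 10.1%). Without steatosis pool 2 the differentially expressed genes were 2. SCD, which makes monounsaturated fatty acids, rose from 7.72 ± 3.91 to 95.1 ± 39.6 FPKM (log2 fold change 3.67, limma adjusted p = 2.7e-04), and ACACA, which makes malonyl-CoA, rose by 1.19. FASN, the fatty acid synthase, was at 9.51 ± 6.90 and 8.42 ± 1.92 FPKM, and its log2 change was 0.03 (SE 0.38, adjusted p = 0.95) but -0.24 under median ratio scaling. FASN was at 19.7 FPKM in initial pool 1 and at 4.55 to 7.59 in the other initial pools, and without that pool its log2 change was 0.46 (adjusted p = 0.13). ACLY had a log2 fold change of -0.08 (adjusted p = 0.67) but fell under median ratio scaling (-0.36, adjusted p = 0.037), and ELOVL6, which elongates fatty acids, fell by 0.49 (adjusted p = 0.0498).

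**Figure D4:**
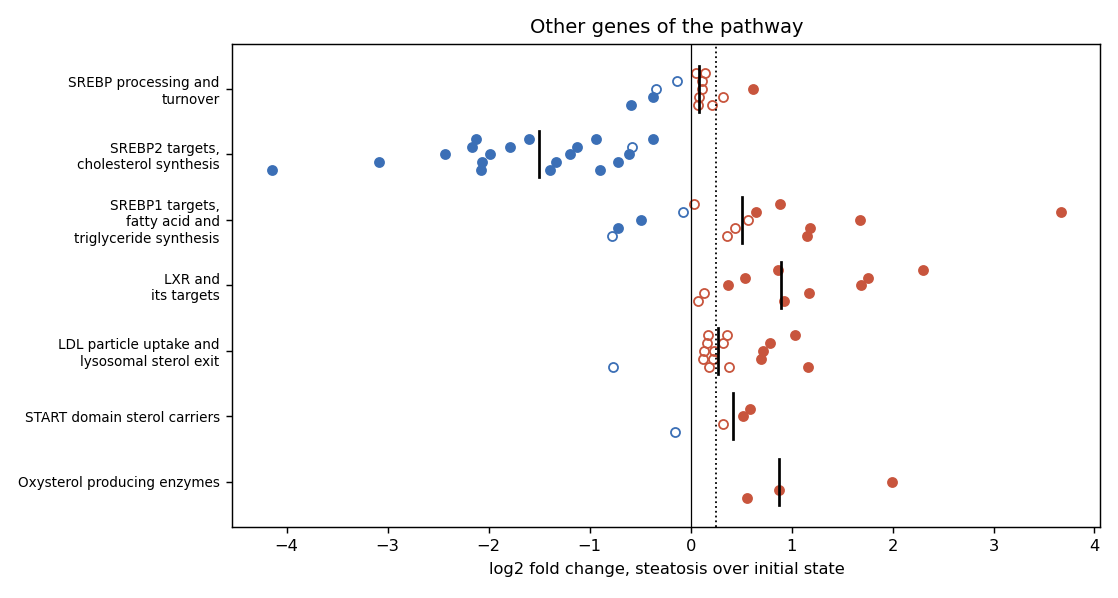
Log2 fold change (horizontal axis, steatosis over initial state) of the tested genes of 7 lists, without the genes SREBF1, INSIG2, MYLIP and STARD4 that some lists hold. Points are genes, filled where the adjusted p was under 0.05, red above 0 and blue below 0, black bars are list medians and the dotted line is the median of all genes (0.25). All 20 genes of cholesterol synthesis lie below 0, and all 10 genes of the LXR list lie above it.

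In the list of LXR and its targets, 4 of 10 genes were differentially expressed and higher, 8 rose and 0 fell (all genes 6.01%, 26.7% and 2.28%), with a median of 0.90. Under median ratio scaling the median was 0.62, with 3 differentially expressed and higher and 6 risen (all genes 3.03% and 11.2%). The cholesterol exporters ABCA1 (1.69), ABCG1 (2.30) and ABCG5 (1.17) rose, all with adjusted p values of at most 6.6e-04. ABCG8, which forms a transporter with ABCG5 and was picked for naming after seeing its value, had a log2 fold change of 0.13 (adjusted p = 0.66), and of -0.15 under median ratio scaling. The receptor gene NR1H3 rose by 0.54 (adjusted p = 0.0029), but by 0.26 under median ratio scaling (adjusted p = 0.10), and NR1H2 had a log2 fold change of 0.07 that turned to -0.21. ABCA1 and ABCG1 are also expressed by macrophages, whose markers summed to at most 778 FPKM in the initial state and at least 1475 in steatosis. Much of that sum was GPNMB, which went from a mean of 24.1 to 776 FPKM. Of the 10 macrophage markers, 5 were differentially expressed and higher, while C1QA, CD163 and CLEC4F did not pass the test. The part of macrophages in the rise of ABCA1 and ABCG1 was not tested.

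Of the 13 genes of SREBP processing and turnover, 0 were differentially expressed (all genes 6.01% higher and 0.334% lower). By the second rule 1 rose and 2 fell (all genes 26.7% and 2.28%), with a median of 0.08. Under median ratio scaling 1 rose and 4 fell (all genes 11.2% and 10.1%), with a median of -0.19. RNF145, a ubiquitin ligase known to act on SCAP, rose by 0.62 (adjusted p = 0.0024, 0.34 under median ratio scaling). PAQR3 (-0.59), which tethers SCAP to the Golgi apparatus, and PGRMC1 (-0.38, adjusted p = 0.059 without initial pool 1) fell, and both were picked for naming after seeing their values. Without initial pool 2 or without steatosis pool 4, 0 genes of this list fell, so neither PAQR3 nor PGRMC1 passed in those fits. The site proteases MBTPS1 (0.21, adjusted p = 0.12) and MBTPS2 (0.11, 0.62) and the ubiquitin ligase RNF139 (0.05, 0.81) did not pass the test, and all 3 were below 0 under median ratio scaling.

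Among 16 genes of LDL particle uptake and lysosomal sterol exit, 2 were differentially expressed and higher, 5 rose and 0 fell (all genes 6.01%, 26.7% and 2.28%), with a median of 0.28 against 0.25 over all genes. In these values as deposited, the share that rose was near that of all genes. Under median ratio scaling 0 were differentially expressed and higher, 4 rose and 0 fell (all genes 3.03%, 11.2% and 10.1%). The median was then -0.0026, against -0.02 over all genes. NPC2, a lysosomal cholesterol carrier, rose from 32.6 ± 1.61 to 73.1 ± 5.57 FPKM (log2 fold change 1.16, limma adjusted p = 3.4e-05), and its partner NPC1 rose by 0.69 and the lysosomal acid lipase gene LIPA by 0.79, although LIPA did not pass under median ratio scaling (0.50, adjusted p = 0.091). SORT1 had a log2 fold change of 0.36 (adjusted p = 0.35), and USP2, a deubiquitinase of the MYLIP protein, one of -0.77 (adjusted p = 0.26). USP2 was at 11.2 FPKM in initial pool 1 and at 1.4 to 3.62 in the other initial pools, and without that pool its value was -0.24 (adjusted p = 0.57). In the list of START domain carriers 2 of 4 genes tested rose (all genes 26.7%), and 0 did under median ratio scaling (all genes 11.2%). They were STARD3 (0.59, adjusted p = 0.0050, but 0.086 under that scaling) and STARD3NL (0.52, 0.0063, but 0.19), a relative of STARD3 that has no START domain and was picked for naming after seeing its value, whereas STARD5 had a log2 fold change of 0.32 (adjusted p = 0.47) and STAR was below the filter. The enzymes CYP7A1 (1.99), CH25H (0.88) and CYP27A1 (0.55) rose (3 of 3 tested, all genes 26.7%). Under median ratio scaling CYP7A1 alone stayed past an adjusted p of 0.05 (1.71, adjusted p = 0.018, all genes 11.2%).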

How the data were processed

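Poly-A RNA of 8 pools had been read as 100 bp paired ends on the DNBseq platform. The authors aligned filtered reads to Sus scrofa 11.1 (HISAT2 2.0.4), built transcripts with StringTie, extended the reference by the new coding ones, and estimated expression with Bowtie2 2.2.5 and RSEM 1.2.12. The deposited FPKM values of all libraries were used. Comparisons of single pools deposited by the authors (fold changes, p and FDR) were not used, apart from their gene lengths. Locations are those of the RefSeq annotation of Sscrofa11.1.

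The filter kept genes that reached 0.3 FPKM in 4 or more of the 8 libraries. On the log2(FPKM + 0.1) scale, limma 3.58.1 (R 4.3.3) was fitted with only the group as a term, a mean-variance trend and Benjamini-Hochberg adjustment. Fold changes of low genes are understated on this scale. Differential expression followed the limits of the study (adjusted p under 0.01, log2 fold change beyond 1). Tables and plots used Python 3.11.15 with scipy 1.17.1, pandas 2.3.3, numpy 2.4.6 and matplotlib 3.10.9. On simulated data of this comparison (13134 genes), 84% of 100 genes changed by 1.5 and 97% of 100 changed by 2.5 on the log2 scale were found, with 1 false call. Noise was drawn for each gene on its own, and the changed genes had a mean above 1 FPKM. Patterns that genes share within a library were not simulated, so these figures may not carry over to the real libraries.

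Depth was estimated from the steps of FPKM in genes of 600 to 900 bases, so it is approximate, and errors are SDs between pools. The same animals were in both groups, but the study does not say that pools of equal number held the same animals. Deviations from the group means correlated at 0.16, 0.35, 0.32 and 0.25 between pools of number 1 to 4. Pools of unequal number were not compared, so these values do not show a pairing. Treating equal numbers as pairs or blocks is an assumption. The block was an alternative, with other scalings, filters, pseudocount, call rules and left-out libraries. The 7 genes, the gene lists and the rule for named genes (the members, fixed steps of each list, and the 3 most similar profiles per member among genes with an assigned symbol) were chosen with earlier results of these data known. A few genes of the lists are counted but not reported here by name. CYP51A1, IDI1 and CYP46A1 were matched under other symbols of the table. ERLIN1 and CYP7B1 were not analysed here, and CYP46A1 was below the filter. The other marker lists gave 1 of 6 stellate, 0 of 5 endothelial, 1 of 5 T and NK and 0 of 3 adipose genes differentially expressed, all higher (all genes 6.01%). With at most 1 call each, these short lists cannot be told from that share.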

Additional observations from a re-analysis of the deposited data

Results flagged for a closer look

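INSIG1 in steatosis pool 1 was far from the other 3 pools of its group, at 47.7 FPKM against 19.7 to 22.7, a gap that spans 0.894 of the range of the group and is past Dixon's 95% limit. About 1 in 20 groups is singled out in this way by chance, and 14 groups were examined.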

How the results depend on the processing

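No value of SREBF1, SREBF2, INSIG1, INSIG2, STARD4, MYLIP or either ratio changed sign under the alternatives run. SCAP did, at -0.066 under median ratio scaling with and without the replicate block (limma adjusted p = 0.707 and 0.714) and at -0.0057 under upper quartile scaling (0.979). SCAP passed neither call rule in these fits. SREBF1 missed the strict rule under median ratio scaling (1.42, adjusted p = 0.0116), upper quartile scaling (1.48, 0.0109) and limma's treat test (1.70, adjusted p of 1), which leave 0 genes of the 7 higher. INSIG1 passed it with the replicate block (-1.77, adjusted p = 6.4e-04), with the block and median ratio scaling (-2.06, 6.6e-04) and without pool 1 of both groups (-1.63, added after seeing the data), which gives 1 of the 7 lower. SREBF1 passed it with the block and median ratio scaling (adjusted p = 0.0038). The block changed no other call of the 7 genes. At an adjusted p under 0.05, 2 were higher and 3 lower, the calls gained being SREBF2 (-0.62), INSIG1 (-1.77), MYLIP (0.86) and STARD4 (-0.46), and the same numbers under median ratio scaling (added after seeing the data; -0.90, -2.06, 0.58 and -0.74). The SREBF1 to SREBF2 ratio could not pass with pools as pairs (2.32, exact p = 0.125) or without pool 1 of both groups (2.60, p = 0.1), the smallest p those designs allow, and it missed 0.05 without any 1 initial pool (p = 0.0571).

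Over all genes, 792 were higher and 44 lower. These were 399 and 86 under median ratio scaling, 401 and 92 with the block as well, 449 and 67 under upper quartile scaling, 395 higher at a pseudocount of 1, 68 and 1 by treat, 3519 and 300 at an adjusted p under 0.05, and 1477 and 1329 when this was combined with median ratio scaling. Leaving out 1 library in turn gave 573 to 788 higher and 26 to 51 lower, with 0 to 1 of the 7 genes in each direction, 1.48 to 1.93 for SREBF1, -2.12 to -1.33 for INSIG1, 0.25 to 0.42 for INSIG2, 0.74 to 0.99 for MYLIP, -0.81 to -0.51 for SREBF2, -0.54 to -0.38 for STARD4, 0.08 to 0.31 for SCAP, and 2.00 to 2.73 and -2.54 to -1.58 for the SREBF1 and INSIG1 ratios.

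With 4 pools of 2 animals per group, animals within a pool cannot be told apart, and the simulation did not cover changes below 1.5 on the log2 scale. Of the 7 genes, MYLIP rests on the fewest fragments.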
